A study of Rattus norvegicus with 24 samples.

Results

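The genes described here encode the proteins of the mitochondrial ribosome, in the livers of rats that differed in dietary protein. They were taken as every probe set that the array annotation pairs with a single gene symbol made of Mrpl or Mrps and a number, with the brightest probe set kept for each gene. This gave 65 of the 17245 genes measured, of which 39 were Mrpl (large subunit) and 26 were Mrps (small subunit) genes, measured by 69 probe sets. One of the 26, Mrps17-ps1, is a pseudogene by its symbol. A further 7 symbols of the family were paired only with probe sets that also carry another symbol, and were not analysed as members.

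Liver RNA came from 24 male Wistar rats, each on 1 Affymetrix whole-transcript array. The 4 groups of 6 rats were fed 5% protein for 4 weeks, 20% protein for 4 weeks, 5% protein for 1 week and 20% protein for 1 week, and the labels name no other treatment, allele or age. These are the figures in the sample titles, whereas codes in the sample descriptions hold 4 and 18 in the place of 5 and 20 and the design text mentions 4 weeks only. A normal diet is the one with 20% protein, per the design text. Levels are log2 of the deposited intensity, so a difference of 1 is a doubling, and a gene was called higher or lower at an adjusted p below 0.05 over all 17245 genes. Below, "rose" and "fell" are used only of called genes.

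Mitochondrial ribosomes translate the few proteins encoded in mitochondrial DNA, all of them subunits of the respiratory chain complexes or of the ATP synthase. Their ribosomal RNAs are made inside the organelle, while all of their proteins are encoded in the nucleus, made in the cytosol and imported. Roughly speaking, some of these proteins descend from bacterial ribosomal proteins and others were added during the evolution of mitochondria, among them most proteins of the central protuberance. Liver cells are rich in mitochondria and depend on their respiratory chain. Promoters of nuclear genes for mitochondrial proteins are known for binding sites of NRF1, of the ETS-family factor GABP and of YY1.

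The start regions of 5 members are printed, chosen by a difference or a p value, or as paralogues of a member so chosen. Mrps18b, Mrps18a and Mrps18c are all relatives of bacterial S18, and Mrps18b had the largest difference of the 65 members at 4 weeks, Mrpl58 had the smallest adjusted p of the fall over time on 20% protein, and Mrpl55 had the second smallest p of the diet comparison at 4 weeks. Each runs from 250 bases before to 50 bases after the RefSeq gene start on assembly GRCr8, 5′ to 3′ on the gene's own strand. Mrps18b lies at chr20:2842756-2843055 on the plus strand, Mrps18a at chr9:22367331-22367630 on the minus strand and Mrps18c at chr14:9122857-9123156 on the minus strand. Mrpl58 lies at chr10:101145092-101145391 and Mrpl55 at chr10:44488003-44488302, both on the plus strand. Capitals mark matches to 5 motifs searched on both strands: CCGGAAG for ETS factors, the NRF1 core TGCGCA, the YY1 core AAGATGG, the E-box CACGTG and the ATF4 element TGATGNAA.
Mrps18b: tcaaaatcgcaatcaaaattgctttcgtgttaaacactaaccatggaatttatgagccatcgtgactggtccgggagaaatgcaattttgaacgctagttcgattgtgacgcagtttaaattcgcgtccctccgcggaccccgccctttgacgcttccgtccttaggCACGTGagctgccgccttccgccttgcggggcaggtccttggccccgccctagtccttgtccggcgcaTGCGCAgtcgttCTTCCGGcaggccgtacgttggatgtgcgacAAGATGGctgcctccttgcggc
Mrps18a: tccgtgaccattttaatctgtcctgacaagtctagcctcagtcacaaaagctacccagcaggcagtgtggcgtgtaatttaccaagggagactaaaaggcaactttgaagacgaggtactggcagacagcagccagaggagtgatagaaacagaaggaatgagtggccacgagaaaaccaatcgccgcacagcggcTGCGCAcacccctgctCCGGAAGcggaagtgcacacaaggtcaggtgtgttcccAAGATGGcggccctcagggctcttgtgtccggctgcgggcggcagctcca
Mrps18c: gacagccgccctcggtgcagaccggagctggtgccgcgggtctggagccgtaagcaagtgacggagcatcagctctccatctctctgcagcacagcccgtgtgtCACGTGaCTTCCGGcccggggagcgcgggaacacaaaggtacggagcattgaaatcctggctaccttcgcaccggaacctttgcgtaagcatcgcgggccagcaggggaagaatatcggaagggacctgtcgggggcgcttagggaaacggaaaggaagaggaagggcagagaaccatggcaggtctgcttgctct
Mrpl58: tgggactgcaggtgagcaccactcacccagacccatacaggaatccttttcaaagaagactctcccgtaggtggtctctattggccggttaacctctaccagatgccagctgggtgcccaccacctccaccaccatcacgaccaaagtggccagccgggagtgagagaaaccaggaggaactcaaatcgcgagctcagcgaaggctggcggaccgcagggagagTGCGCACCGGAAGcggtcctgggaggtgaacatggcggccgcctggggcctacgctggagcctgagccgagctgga
Mrpl55: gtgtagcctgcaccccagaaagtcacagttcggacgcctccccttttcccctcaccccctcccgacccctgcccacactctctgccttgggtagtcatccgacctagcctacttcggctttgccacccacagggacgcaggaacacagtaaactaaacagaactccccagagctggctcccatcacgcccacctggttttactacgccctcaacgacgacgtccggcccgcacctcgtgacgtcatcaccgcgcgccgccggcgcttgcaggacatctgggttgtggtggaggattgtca
In Mrps18b, the E-box began at base -83, the NRF1 core at -15, the ETS motif (on the other strand, as CTTCCGG) at -3 and the YY1 core at 29, counted from the gene start as base 1. Mrps18a held the NRF1 core at -54, the ETS motif at -38 and the YY1 core at 1. Mrps18c held an E-box at -146 and an ETS motif at -139, and Mrpl58 an NRF1 core at -26 followed directly by an ETS motif at -20. Mrpl55 matched none of the 5 motifs in this window. Matches of different motifs can share bases, but none of those printed did.

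At 4 weeks, 28 of the 65 members rose on 5% protein and 0 fell by limma, and the calls lay in both subunits. At an unadjusted p below 0.05, 32 were higher and 2 lower. Among all genes tested, 13.4% were called higher and 12.4% were called lower in the same comparison, so the share of members called higher, 43.1%, lay above the background and the share called lower lay below it. Of the 39 Mrpl genes, 17 rose, and of the 26 Mrps genes, 11 rose. The median log2 difference was 0.21 for Mrpl genes and 0.18 for Mrps genes, against -0.01 for all genes. The difference was above 0 for 56 of the 65 members, against 47.6% of all genes. In 12 members every rat on 5% protein lay above every rat on 20% protein, and in 0 members every rat on 5% protein lay below. Among all genes, 6.55% had groups that did not overlap in the first way and 5.88% in the second. With run of animal numbers as a covariate, since the diets were unevenly spread over 2 runs at 4 weeks, 17 members were higher and 0 lower, against 11% and 10.4% of all genes, and 16 of the 17 were among the 28.

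**Figure D1:**
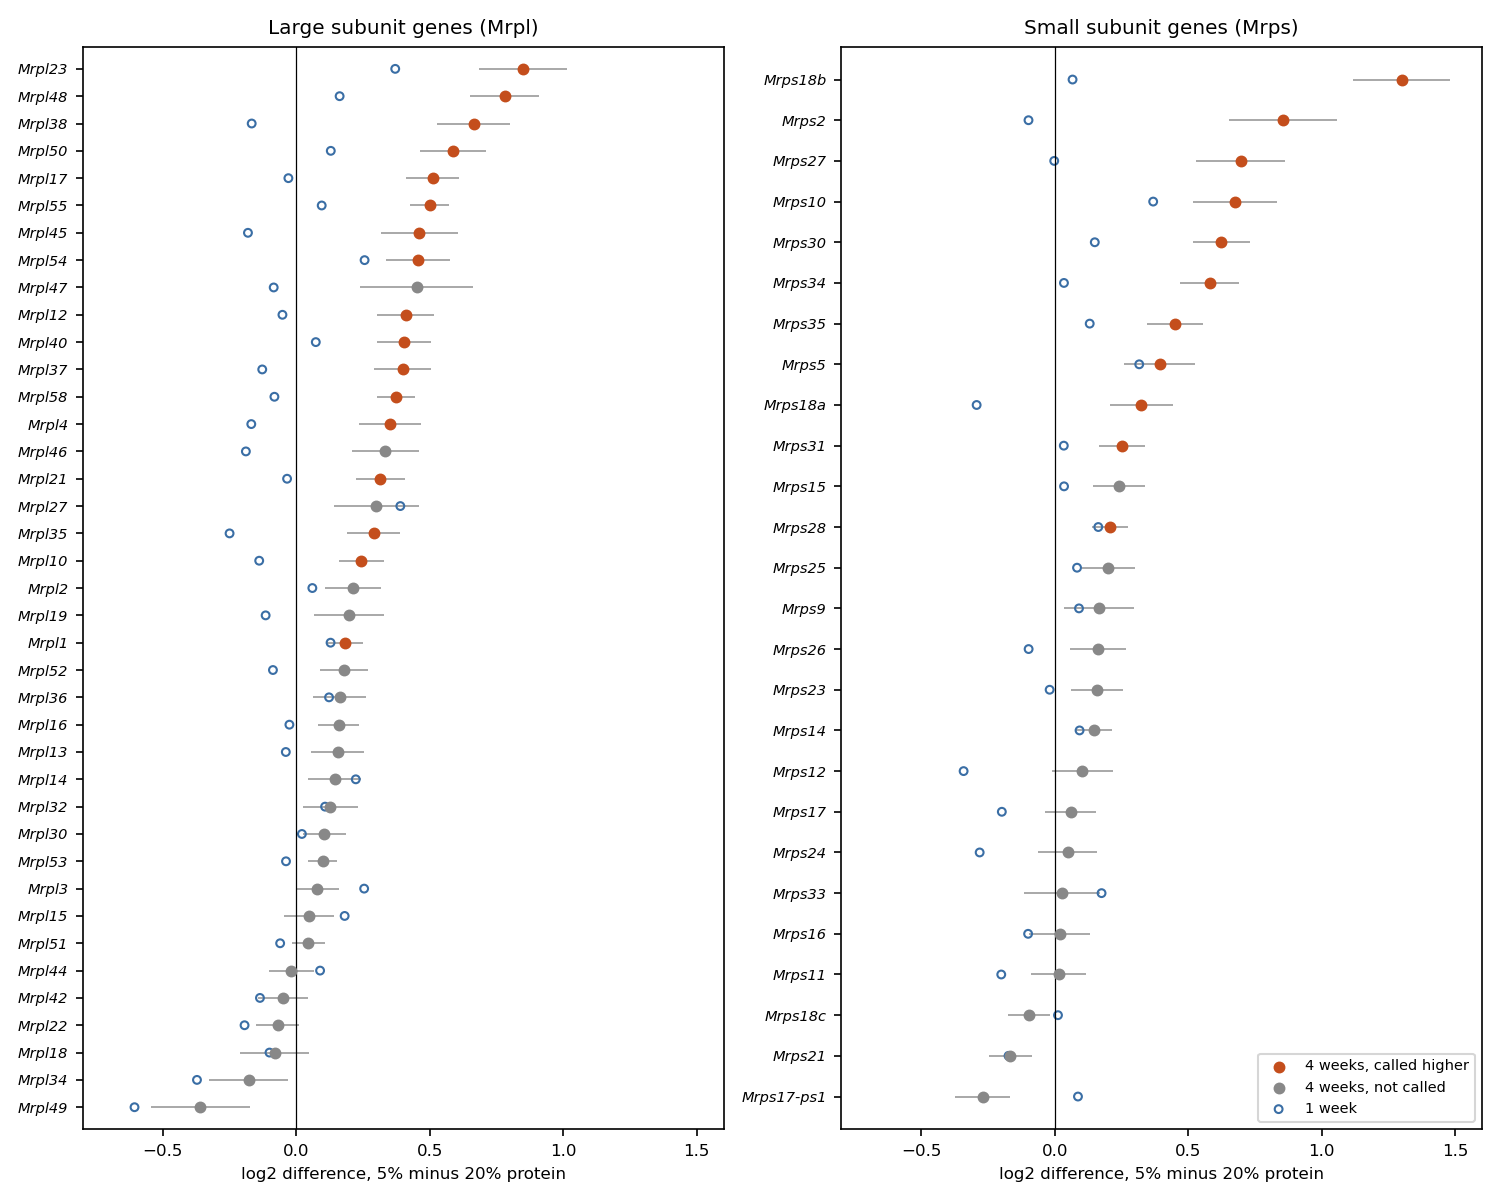
Log2 difference of 5% minus 20% protein for the 39 Mrpl genes (left) and the 26 Mrps genes (right). Filled points with bars are the differences at 4 weeks with their standard error, coloured where the gene was called, and open points are the differences at 1 week. At 4 weeks the values run from -0.36 (Mrpl49) to 1.30 (Mrps18b), and 56 of 65 lie right of 0.

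Mrps18b, a small-subunit protein specific to mitochondria, rose furthest. Its log2 intensity ran from 9.20 over a median of 9.45 to 9.67 on 5% protein, and from 7.70 over 7.98 to 8.71 on 20% protein. All 6 rats on 5% protein were above all 6 rats on 20% protein. The difference was 1.30 ± 0.18 (SE), a 2.46-fold level, with a limma adjusted p of 8.45e-06. Its paralogue Mrps18a, which sits in the large subunit by the unified ribosomal nomenclature, had 9.91, 10.25 and 10.70 (lowest, median and highest) on 5% protein and 9.70, 9.90 and 10.25 on 20% protein. These groups overlapped, and the rise of 0.32 ± 0.12 (limma adjusted p = 0.0425) lost its call in 11 of 24 alternative settings. The third paralogue, Mrps18c, which takes the place of bacterial S18 in the small subunit, had 10.20, 10.37 and 10.54 on 5% protein and 10.27, 10.46 and 10.71 on 20% protein. Its groups overlapped along most of their range, and its difference of -0.10 ± 0.08 was not called (limma adjusted p = 0.424).

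Several large-subunit proteins rose without overlap between the groups. Mrpl55, the counterpart of bacterial L31, had 7.65, 7.82 and 8.07 (lowest, median and highest) on 5% protein and 7.24, 7.33 and 7.44 on 20% protein. The groups did not overlap, and the difference was 0.50 ± 0.07 (limma adjusted p = 1.44e-05). Mrpl48, a protein of the central protuberance, had 7.40, 7.55 and 7.75 on 5% protein and 6.69, 6.77 and 6.92 on 20% protein. Again every rat on 5% protein was higher, by a mean of 0.78 ± 0.13 (limma adjusted p = 6.81e-05), a 1.72-fold level. Mrpl23, which lies at the end of the exit tunnel of the large subunit, had 9.97, 10.33 and 10.81 on 5% protein and 9.36, 9.51 and 9.62 on 20% protein. Its groups were apart as well, and it differed by 0.85 ± 0.16 (limma adjusted p = 0.00038). Mrps30, counted with Mrps by its symbol but placed in the large subunit by the unified nomenclature, had 9.14, 9.33 and 9.46 on 5% protein and 8.55, 8.67 and 8.95 on 20% protein. It rose by 0.62 ± 0.11 with no overlap of the groups (limma adjusted p = 0.000106).

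Mrpl58 is a peptidyl-tRNA hydrolase built into the large subunit and is known to rescue stalled mitochondrial ribosomes. It had 8.82, 8.9996 and 9.21 on 5% protein and 8.51, 8.61 and 8.80 on 20% protein. The lowest rat on 5% protein was just above the highest on 20% protein, and the difference was 0.37 ± 0.07 (limma adjusted p = 0.000401). Mrpl38, a central protuberance protein, had 8.80, 9.13 and 9.30 on 5% protein and 8.14, 8.29 and 9.01 on 20% protein. One rat on 20% protein reached into the range of the other group, and the rise was 0.66 ± 0.14 (limma adjusted p = 0.000649). Mrpl17, the counterpart of bacterial L17 near the exit tunnel, had 9.004, 9.28 and 9.61 on 5% protein and 8.57, 8.71 and 8.99 on 20% protein. Its ranges met without overlapping, and it rose by 0.51 ± 0.10 (limma adjusted p = 0.000422). Within run 1 of the animal numbers Mrpl58 differed by 0.32, Mrpl38 by 0.29 and Mrpl17 by 0.32, and none of the 3 was called there (limma adjusted p = 0.0559, 0.262 and 0.124).

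In the small subunit, Mrps34, a protein specific to mitochondria, had 7.96, 8.07 and 8.15 on 5% protein and 7.15, 7.42 and 7.94 on 20% protein. The groups did not overlap, and the rise was 0.58 ± 0.11 (limma adjusted p = 0.000351). Mrps27, which belongs to the pentatricopeptide repeat family of RNA-binding proteins, had 7.95, 8.29 and 8.57 on 5% protein and 7.11, 7.62 and 7.94 on 20% protein. It rose by 0.70 ± 0.17 (limma adjusted p = 0.00283), with the ranges again meeting but not overlapping. Among proteins with a bacterial counterpart, Mrps2 differed by 0.86 ± 0.20 (limma adjusted p = 0.00249) and Mrps10 by 0.67 ± 0.16 (limma adjusted p = 0.00205). In both, the groups overlapped by no more than 1 rat of each diet. Within run 1 of the animal numbers these 4 were not called: Mrps34 differed by 0.27, Mrps27 by 0.49, Mrps2 by 0.31 and Mrps10 by 0.41 (limma adjusted p = 0.132, 0.131, 0.227 and 0.0974).

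**Figure D2:**
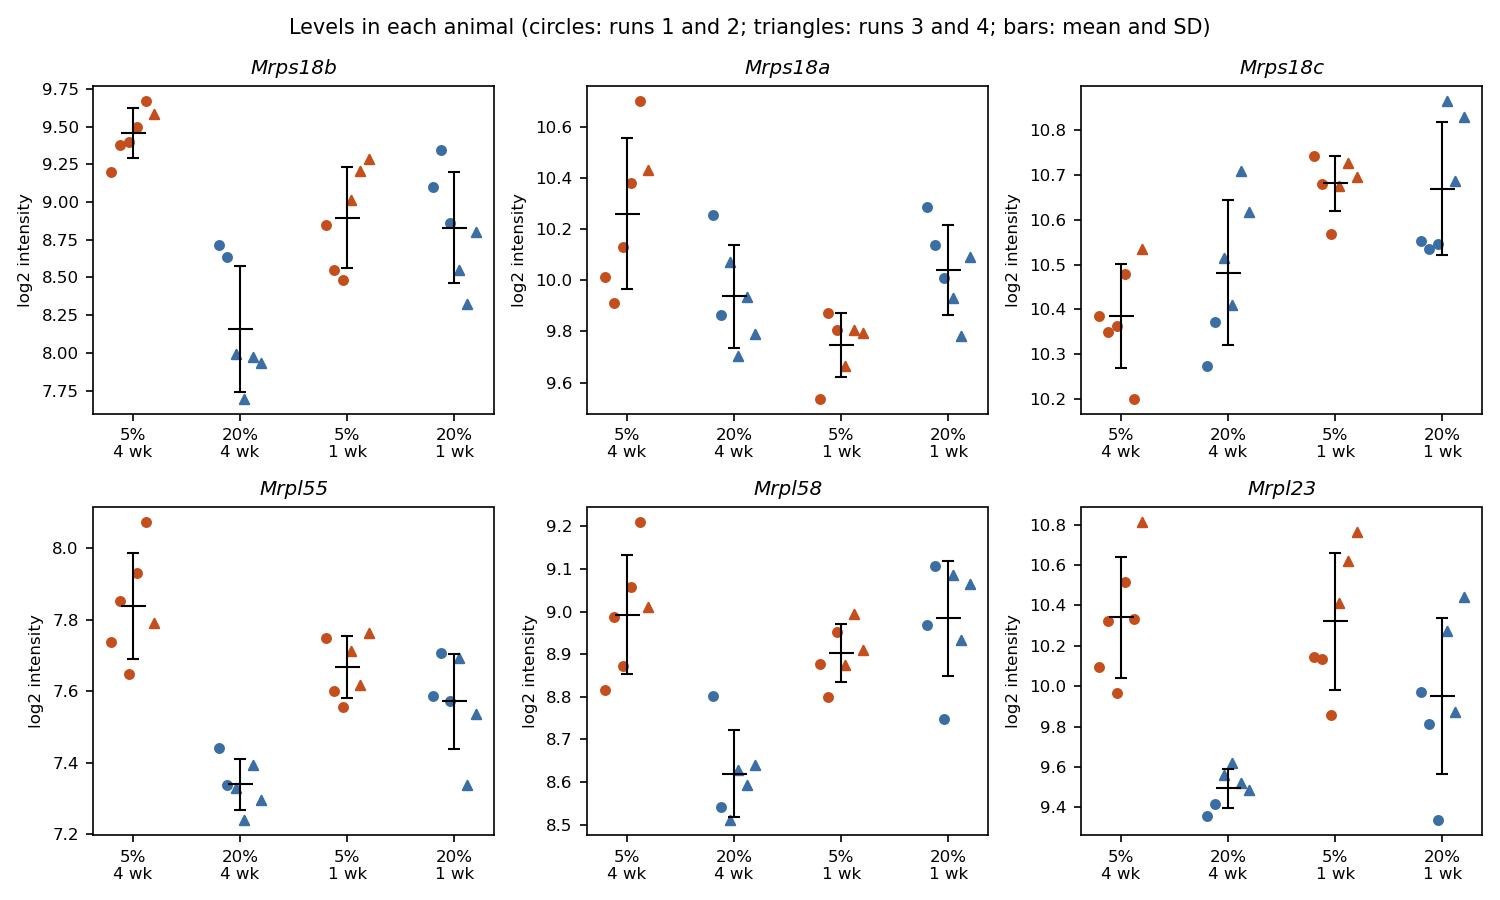
Log2 intensity of 6 members in each of the 24 rats, by diet and week. Circles are rats of the earlier run of animal numbers of that week, triangles rats of the later run, and bars give the mean and SD of 6 rats. At 4 weeks the rats on 5% protein lie above all rats on 20% protein for Mrps18b, Mrpl55, Mrpl58 and Mrpl23, and the groups overlap for Mrps18a and Mrps18c.

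Of 4 members described for functions of their own, Mrpl12 and Mrpl45 rose, and Mrps12 and Mrpl27 were not called. Mrpl12 forms the stalk that binds translation factors and, in human cells, is known to bind the mitochondrial RNA polymerase. It had 9.29, 9.43 and 9.49 on 5% protein and 8.65, 8.99 and 9.46 on 20% protein at 4 weeks. Only the highest rat on 20% protein came up to the other group, and the rise was 0.41 ± 0.11 (limma adjusted p = 0.00568). Mrpl45, which anchors the large subunit to the inner membrane, had 8.28, 8.81 and 9.10 on 5% protein and 8.08, 8.30 and 8.48 on 20% protein. It rose by 0.46 ± 0.14 (limma adjusted p = 0.0194) with overlapping groups, and its second, dimmer probe set differed by 0.23 ± 0.12 at an unadjusted limma p of 0.0636. Mrpl12 lost its call in 3 and Mrpl45 in 4 of 24 alternative settings. Neither was called with run of animal numbers as a covariate (limma adjusted p = 0.0924 and 0.0693). Within run 1 they differed by 0.16 and 0.31 and were not called (limma adjusted p = 0.506 and 0.314). Within run 3, which held 1 rat on 5% protein, they differed by 0.50 and 0.54. Mrps12, a protein of the decoding centre, had 9.02, 9.29 and 9.39 on 5% protein and 8.96, 9.05 and 9.71 on 20% protein. The range on 20% protein enclosed that on 5% protein, and the difference of 0.10 ± 0.11 was not called (limma adjusted p = 0.579). Mrpl27, which in bacteria reaches the peptidyl transferase centre, had 9.21, 9.58 and 9.90 on 5% protein and 8.84, 9.46 and 9.60 on 20% protein, which overlapped, and its difference of 0.30 ± 0.16 was not called either (limma adjusted p = 0.189).

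Of the 4 members with a negative difference and the smallest p, none was called at 4 weeks. Mrps17-ps1 had 5.24, 5.30 and 5.61 on 5% protein and 5.41, 5.62 and 5.83 on 20% protein. The groups overlapped, and the difference of -0.27 ± 0.10 narrowly missed the threshold (limma adjusted p = 0.0537). Mrps21, the counterpart of bacterial S21, had 10.82, 10.91 and 11.14 on 5% protein and 11.01, 11.10 and 11.31 on 20% protein, a difference of -0.17 ± 0.08 (limma adjusted p = 0.136). Its second probe set gave -0.18 ± 0.08. Mrpl49, specific to mitochondria, had 7.17, 7.35 and 7.84 on 5% protein and 7.38, 7.70 and 8.55 on 20% protein, and Mrpl34, the counterpart of bacterial L34, had 9.05, 9.23 and 9.60 on 5% protein and 9.23, 9.36 and 9.90 on 20% protein. Both pairs of groups overlapped, with differences of -0.36 ± 0.19 and -0.18 ± 0.15 (limma adjusted p = 0.171 and 0.424).

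Members specific to mitochondria and members with a bacterial counterpart were then counted apart, by the unified nomenclature. At 4 weeks 15 of the 26 members specific to mitochondria rose, with a median difference of 0.35, and 13 of the 38 with a bacterial counterpart rose, with a median of 0.16. Among Mrpl genes the counts were 8 of 15 and 9 of 24, and among Mrps genes 7 of 11 and 4 of 14. Over all genes, 13.4% were called higher, with a median of -0.01. The pseudogene Mrps17-ps1 was counted in neither class. The difference between the classes was not tested.

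The mean over each subunit's genes separated the 2 diets at 4 weeks. Each gene was set to its deviation from its mean over the 24 arrays and the deviations were averaged per rat. The Mrpl average was 0.09 ± 0.06 in rats on 5% protein for 4 weeks and -0.16 ± 0.06 in rats on 20% protein for 4 weeks (SD, n = 6 each). It was 0.03 ± 0.10 in rats on 5% protein for 1 week and 0.05 ± 0.07 in rats on 20% protein for 1 week. The Mrps average was 0.10 ± 0.06 and -0.18 ± 0.08 in the 5% and 20% groups of 4 weeks, and 0.04 ± 0.06 in each group of 1 week. At 4 weeks the highest rat on 20% protein lay at -0.09 for Mrpl and -0.07 for Mrps, below the lowest rat on 5% protein at -0.01 and 0.01. These averages were not adjusted for run of animal numbers, over which the diets were unevenly spread at 4 weeks. On 20% protein, rats 29 and 30 of run 1 lay at -0.09 and -0.10 for Mrpl, and at -0.14 and -0.07 for Mrps. The run 3 rats on 20% protein lay between -0.22 and -0.17 for Mrpl, and between -0.29 and -0.15 for Mrps. Rats of 1 week overlapped with the 20% group of 4 weeks in the Mrpl average, where the lowest, rat 54 on 5% protein, was at -0.14.

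**Figure D3:**
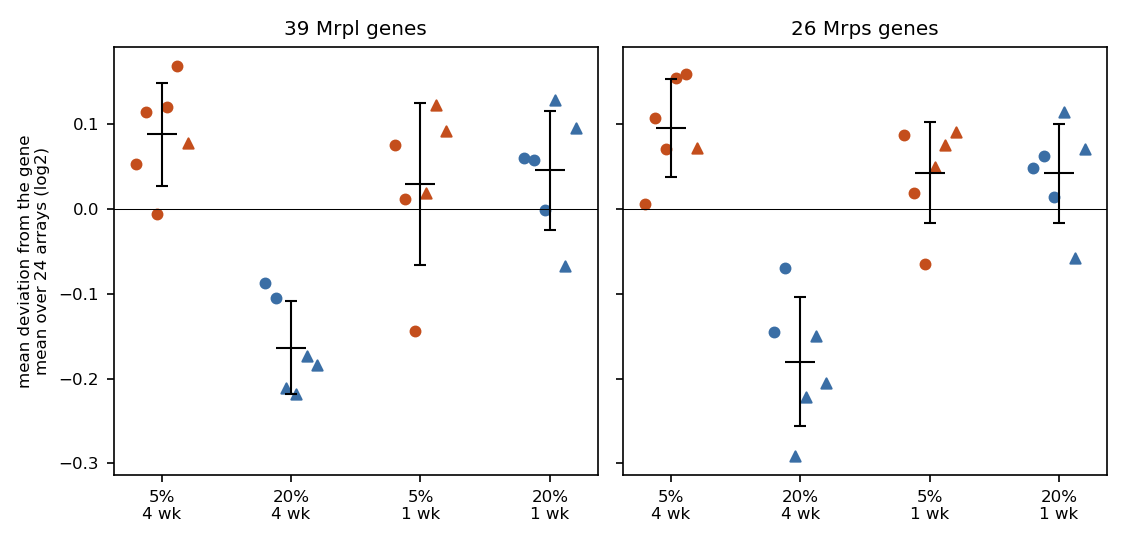
Mean deviation of the 39 Mrpl genes (left) and 26 Mrps genes (right) from each gene's mean over 24 arrays, on the log2 scale, 1 point per rat. Circles are rats of the earlier run of animal numbers of that week, triangles the later run, and bars give the mean and SD of 6 rats. The 6 rats on 20% protein for 4 weeks lie below 0 for both subunits.

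After 1 week, 0 of the 65 members were called higher and 0 lower on 5% protein by limma, and 17 had an unadjusted p below 0.05. Among all genes, 1.86% were called higher and 2.44% lower. The median difference was -0.04 for Mrpl and 0.03 for Mrps genes, against -0.01 for all genes, and 31 of 65 members were above 0. In 0 members did the groups of 1 week fail to overlap, against 1.2% of all genes with every rat on 5% protein above and 1.36% with every rat below. The smallest p in the upward direction were those of Mrpl3, Mrpl27 and Mrps5, with differences of 0.25 ± 0.08, 0.39 ± 0.16 and 0.32 ± 0.13 (limma adjusted p = 0.074, 0.19 and 0.198). Mrpl3, a neighbour of the peptidyl transferase centre, had 8.27, 8.30 and 8.52 on 5% protein and 7.93, 8.12 and 8.33 on 20% protein. Mrpl27 had 9.25, 9.59 and 9.94 on 5% protein and 8.69, 9.31 and 9.49 on 20% protein, and Mrps5 had 7.87, 7.99 and 8.34 on 5% protein and 7.38, 7.79 and 8.01 on 20% protein. In each of the 3, most rats on 5% protein were above the median rat on 20% protein while the ranges overlapped.

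In the downward direction at 1 week, Mrpl49 differed by -0.61 ± 0.19 (limma adjusted p = 0.0646), with 7.31, 7.51 and 7.88 on 5% protein and 7.56, 8.28 and 8.52 on 20% protein. Mrps12 had 8.88, 9.11 and 9.23 on 5% protein and 9.18, 9.44 and 9.76 on 20% protein, a difference of -0.34 ± 0.11 (limma adjusted p = 0.0927). Mrpl35, the counterpart of bacterial L35, had 8.60, 8.87 and 9.05 on 5% protein and 8.83, 9.19 and 9.28 on 20% protein, a difference of -0.25 ± 0.10 (limma adjusted p = 0.163). The ranges touched or overlapped in all 3, and none of these differences was called.

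**Figure D4:**
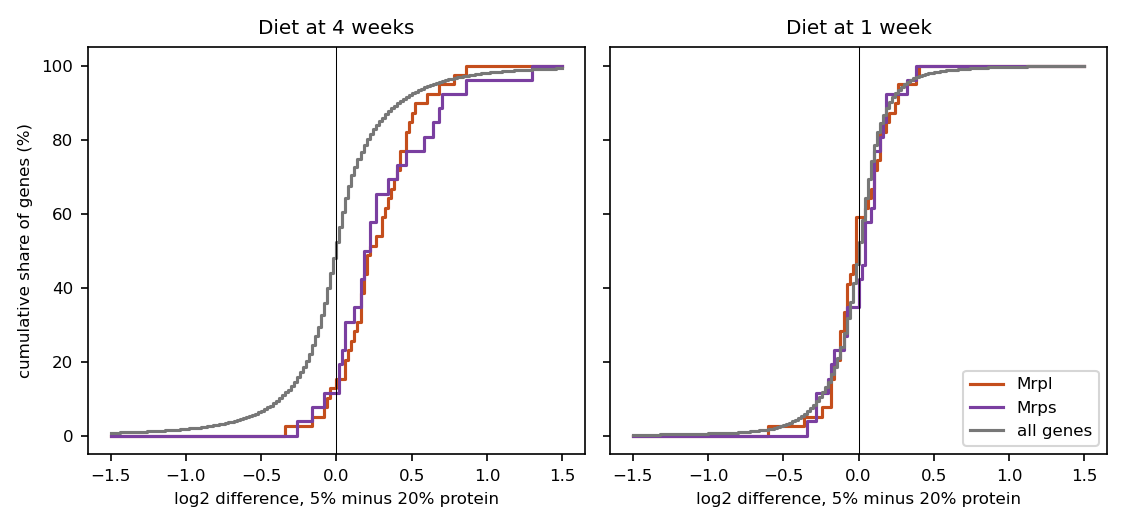
Cumulative share of genes (%) against the log2 difference of 5% minus 20% protein, at 4 weeks (left) and 1 week (right), for Mrpl genes, Mrps genes and all 17245 genes. At 4 weeks both member curves run right of the curve of all genes, with medians of 0.21 and 0.18 against -0.01, and at 1 week the 3 curves lie close together.

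The diet effect at 4 weeks was next tested against that at 1 week, with the interaction term of the same model. By limma the difference of 5% minus 20% protein was more positive at 4 weeks for 11 members and more negative for 0. At an unadjusted p below 0.05 the counts were 25 and 1. The shares over all genes were 3.54% called in the first direction and 2.2% in the second. The 11 were Mrpl17, Mrpl35, Mrpl37, Mrpl38, Mrpl48, Mrpl55, Mrpl58, Mrps18a, Mrps18b, Mrps2 and Mrps34, and all of them were among the 28 that rose at 4 weeks. The 2 comparisons share the animals of 4 weeks. Mrps18b differed by 1.23 ± 0.26 (limma adjusted p = 0.00786), since its diet difference was 1.30 at 4 weeks and 0.07 at 1 week, where it had 8.48, 8.93 and 9.28 on 5% protein and 8.32, 8.83 and 9.35 on 20% protein. Its 1 week difference was -0.48 within run 2 of the animal numbers and 0.61 within run 4 (limma adjusted p = 0.0474 and 0.0108). Mrpl58 had a term of 0.46 ± 0.10 (limma adjusted p = 0.0133), Mrpl38 of 0.83 ± 0.19 (limma adjusted p = 0.0147) and Mrpl55 of 0.41 ± 0.10 (limma adjusted p = 0.0231). At 1 week these 3 had overlapping groups, with diet differences of -0.08, -0.17 and 0.09. With run of animal numbers as a covariate the count of 11 was 2 and that of 0 stayed 0, against 1.8% and 1.01% of all genes, and Mrpl38 and Mrpl55 were no longer called (limma adjusted p = 0.0525 and 0.0775), while Mrps18b and Mrpl58 were called in all 33 alternative settings. None of those settings lets the diet difference vary between runs of the same week.

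On 5% protein, 1 member rose and 2 fell at 4 weeks relative to 1 week, against 4.15% of all genes called higher and 4.13% lower at 4 weeks. Mrps18a was the one that rose. It had 9.91, 10.25 and 10.70 at 4 weeks and 9.54, 9.80 and 9.87 at 1 week, so that the 2 times did not overlap, and the difference was 0.51 ± 0.12 (limma adjusted p = 0.00862). Mrps18c fell by 0.30 on the log2 scale (SE 0.08, limma adjusted p = 0.0212), with 10.20, 10.37 and 10.54 at 4 weeks and 10.57, 10.69 and 10.74 at 1 week, again without overlap. Mrpl3 fell by 0.28 (SE 0.08, limma adjusted p = 0.0307), with 7.89, 8.10 and 8.21 at 4 weeks and 8.27, 8.30 and 8.52 at 1 week, and these ranges were apart as well. The next members by p were not called. Mrps18b differed by 0.56 ± 0.18 (limma adjusted p = 0.0554), Mrpl17 by 0.29 ± 0.10 (limma adjusted p = 0.0709) and Mrps14 by -0.18 ± 0.07 (limma adjusted p = 0.105). The median over the 65 members was 0.03, against 0.01 over all genes. Mrps18a was called in all 21 alternative settings, while Mrpl3 lost its call in 4 of them and Mrps18c in 1, without rat 32. None of these settings included run of animal numbers. No run held rats of both weeks, so week and run cannot be told apart.

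On 20% protein, 7 members fell and 0 rose by limma at 4 weeks relative to 1 week (29 and 0 at an unadjusted p below 0.05), against 1.5% of all genes called lower and 1.02% called higher. The 7 were Mrpl12, Mrpl38, Mrpl58, Mrps18b, Mrps27, Mrps30 and Mrps34, and each was also among those that rose on 5% protein at 4 weeks. Both comparisons use the 6 rats on 20% protein for 4 weeks. Week and run of animal numbers cannot be told apart here either, and no alternative setting of the comparison over time included run. The difference over time was below 0 for 59 of 65 members, with a median of -0.23 for Mrpl and -0.19 for Mrps genes, against 0.01 for all genes. Mrpl58 had 8.51, 8.61 and 8.80 at 4 weeks and 8.75, 9.02 and 9.11 at 1 week, and fell by 0.37 on the log2 scale (SE 0.07, limma adjusted p = 0.00557) with ranges that barely overlapped. Mrps27 had 7.11, 7.62 and 7.94 at 4 weeks and 7.89, 8.27 and 8.59 at 1 week, and fell by 0.67 (SE 0.17, limma adjusted p = 0.0295). Mrpl12 had 8.65, 8.99 and 9.46 at 4 weeks and 9.20, 9.49 and 9.65 at 1 week, and fell by 0.42 (SE 0.11, limma adjusted p = 0.0319). The ranges of Mrps27 and Mrpl12 overlapped at their ends. Mrpl58 was called in all 21 alternative settings, but Mrps27 lost its call in 7 and Mrpl12 in 10, and the count of 7 was between 1 and 12 with 1 rat left out (1 without rat 63, 67 or 73, and 12 without rat 29). Members with a positive difference were few and not called: Mrps17-ps1 differed by 0.11 ± 0.10, Mrpl15 by 0.10 ± 0.09 and Mrpl27 by 0.12 ± 0.16 (limma adjusted p = 0.65, 0.659 and 0.76).

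The sample titles hold an animal number and a well position, which were used to look for batches. The numbers fall into 4 runs. Rats of 4 weeks were in run 1 (5 on 5% and 2 on 20% protein) and run 3 (1 on 5% and 4 on 20% protein), and rats of 1 week in runs 2 and 4 (3 on each diet in each). No run held rats of both weeks, so the differences over time cannot be told apart from differences between runs. At 4 weeks, 12 members were called higher on 5% protein and 1 lower within run 1, or 18.5% and 1.54%, against 8.32% and 7.54% of all genes. Within run 3 it was 14 higher and 0 lower, against 6.83% and 5.49%. The median difference was 0.18 for Mrpl and 0.26 for Mrps genes in run 1 and 0.19 and 0.16 in run 3. The run 3 values rest on the single 5% rat 59, whose spread is assumed to be that of the other groups. For Mrps18b it was 0.75 in run 1 and 1.69 in run 3, with limma adjusted p of 0.00137 and 1.35e-05. By limma, the diet effect differed between runs 1 and 3 for 0 members (14 at an unadjusted p below 0.05), and over all genes for 4 in one direction and 1 in the other (0.0232% and 0.0058%). Mrpl49 was the member called lower within run 1, by -0.85 (limma adjusted p = 0.00427), against 0.09 in run 3.

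Within the runs of 1 week few members were called, at shares near those of all genes. In run 2, 1 member was called higher and 5 lower on 5% protein (1.54% and 7.69%), against 2.86% and 4.71% of all genes. In run 4, 3 were higher and 2 lower (4.62% and 3.08%), against 4.04% and 4.45%. The diet effect was lower in run 2 than in run 4 for Mrpl46, Mrpl47, Mrps18b and Mrps2 and higher for Mrps16, that is for 6.15% and 1.54% of members, against 4.76% and 2.53% of all genes. Mrps18b had a diet difference of -0.48 in run 2 and 0.61 in run 4, Mrps2 of -0.69 and 0.49, and Mrpl47 of -0.86 and 0.69. Mrps16 had 0.33 in run 2 and -0.53 in run 4. At 1 week no well row held rats of both diets, so well row and diet cannot be told apart there.

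Rat-to-rat variation within groups was weakly shared by the members. After the group means were taken off, the median correlation over the 24 arrays was 0.149 between pairs of Mrpl genes, 0.091 between pairs of Mrps genes and 0.129 between an Mrpl and an Mrps gene, against 0.009 over all pairs of genes. These arrays share their normalization, and the values are a description. Set against the mean of the other 64 members, Mrps30 had the highest correlation, 0.896, and Mrpl38 followed with 0.795, while Mrpl14 had the lowest, -0.375.

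The other parts of the mitochondrial translation system were read from lists of genes. At 4 weeks, 13.4% of all genes were called higher and 12.4% lower. Of 5 mitochondrial ribosomal proteins with other symbols, 0 were called at 4 weeks by limma and 1 had an unadjusted p below 0.05: Ptcd3, a small-subunit protein, differed by 0.27 (limma adjusted p = 0.084) and Gadd45gip1, a large-subunit protein, by 0.15 (limma adjusted p = 0.225). Among 10 mitochondrial translation factors, 3 rose and 0 fell, with a median of 0.07. These were Tufm, the elongation factor that brings aminoacyl-tRNA, by 0.40, Gfm2, which recycles ribosomes, by 0.26, and Mtif2, the initiation factor, by 0.31. Neither Rmnd1 nor Mtrf1l, with differences of -0.16 and -0.15, was called.

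Genes for assembling the mitochondrial ribosome and modifying its RNA showed a larger share of calls, 14 higher and 1 lower of 24. That was 58.3% and 4.17%, against 13.4% and 12.4% of all genes, with a median of 0.35. Mrm3, a methyltransferase of the large ribosomal RNA, rose by 0.82 ± 0.15 at 4 weeks. Afg3l2, a subunit of the m-AAA protease that matures Mrpl32, rose by 0.63 ± 0.07, with 8.65, 8.72 and 8.78 on 5% protein and 7.88, 8.08 and 8.29 on 20% protein. Its groups did not overlap, and its diet-by-time term was called (limma adjusted p = 0.00427). Rbfa, a maturation factor of the small subunit, fell by 0.31 (limma adjusted p = 0.0325). The substrate of that protease, Mrpl32, differed by 0.13 and was not called.

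Of 16 genes for mitochondrial transcription and RNA handling, 10 rose and 2 fell, with a median of 0.35. That was 62.5% and 12.5%, against 13.4% and 12.4% of all genes. Lrpprc, which stabilises mitochondrial messenger RNAs, rose by 0.67 ± 0.07 and Rexo2, an oligoribonuclease, by 0.79 ± 0.12. Slirp, the binding partner of Lrpprc, fell by 0.33 (limma adjusted p = 0.0172), and Hsd17b10, a subunit of mitochondrial RNase P that is also a dehydrogenase of isoleucine breakdown, fell by 0.42 (limma adjusted p = 0.00398). Lrpprc was also called at 1 week, where it rose by 0.37 (limma adjusted p = 0.0021).

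Regulators known to act on nuclear genes for mitochondrial proteins gave 7 higher and 1 lower of 11. That was 63.6% and 9.09%, against 13.4% and 12.4% of all genes. Myc rose by 2.23 ± 0.32, with 8.13, 8.96 and 9.38 on 5% protein and 6.15, 6.60 and 7.45 on 20% protein, ranges that did not overlap. Atf4, a transcription factor induced by lack of amino acids, rose by 0.76 ± 0.11 at 4 weeks and by 0.51 at 1 week (limma adjusted p = 0.0078). Nrf1 rose by 0.47 ± 0.13, while Yy1 differed by -0.16 and was not called. Esrrg fell by 1.56 ± 0.28 on the log2 scale.

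These ribosomes make the mitochondrially encoded subunits of respiratory chain complex I, which were not in the list read here. The nuclear genes of that complex, by contrast, had 2 higher and 3 lower of 32. These shares at 4 weeks were 6.25% and 9.38%, against 13.4% and 12.4% of all genes, with a median of 0.02. Ndufs1 rose by 0.37 and Ndufb7 by 0.28, and Ndufa1 fell by 0.69 and Ndufc1 by 0.40. Cytosolic ribosomal protein genes had 99 higher and 2 lower of 155, with a median of 0.43. With symbols of likely copies left out, a choice made after the symbols had been seen, 54 of 56 rose and 0 fell at 4 weeks, with a median of 0.65, and 35 of 56 rose and 0 fell at 1 week, with a median of 0.31. The shares over all genes at 1 week were 1.86% higher and 2.44% lower. The mitochondrial members had 28 and 0 of 65 higher in the same 2 comparisons.

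**Figure D5:**
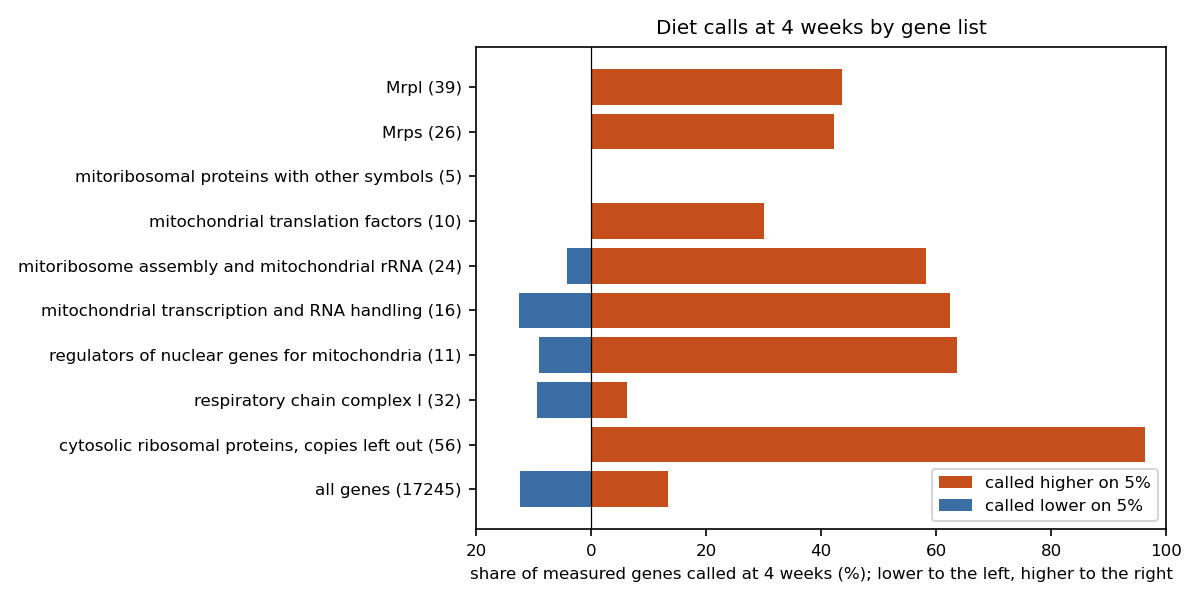
Share of measured genes (%) called higher (right of 0) and lower (left of 0) on 5% protein at 4 weeks, for Mrpl and Mrps genes, other lists and all 17245 genes, with the number measured in brackets. Mrpl and Mrps genes have 43.6% and 42.3% higher and 0 lower, complex I genes 6.25% higher and 9.38% lower, and all genes 13.4% and 12.4%.

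The start regions were compared over the members as a description. RefSeq start regions were found for 52 members, 22 of them called at 4 weeks and 30 not called. The ETS motif was in 40.9% of called and 30% of uncalled members, against 12.5% of all tested genes with a start region and 9.22% of all 27457 start regions. The NRF1 core was in 27.3% and 26.7%, against 10.3% and 7.68%, and the YY1 core in 36.4% and 20%, against 7.58% and 7.3%. At least 1 of these 3 was in 63.6% of called and 63.3% of uncalled members, against 26.4% of tested genes. The E-box was in 13.6% and 10%, against 7.97%, and the ATF4 element in 0% and 3.33%, against 2.96% of tested genes. A match is not a shown site of binding.

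Of the 52 members with a start region, 16 had a gene starting on the opposite strand within 1000 bases in RefSeq. Of these neighbours, 14 were measured, and members without a start region were not searched. At 4 weeks 2 of the 14 neighbours rose and 3 fell, against 13.4% and 12.4% of all genes. Mrpl37 and its neighbour Cyb5rl both rose, by 0.40 and 0.46. Mrps18b had a neighbour, Ppp1r10, with a difference of -0.24 that was not called, against 1.30 for Mrps18b. Mrpl30 was not called while its neighbour Mitd1 fell by 0.65 on the log2 scale (limma adjusted p = 0.000369). Mrpl46 and Mrps11 start beside each other, with differences of 0.33 and 0.01, and neither was called.

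Some cell type markers differed between the diets at 4 weeks. Kupffer cell and macrophage markers fell in 7 of 8 genes, with summed intensities of 3014 to 3846 on 5% protein and 4522 to 7517 on 20% protein. Among hepatocyte markers 3 of 7 fell, with sums of 52669 to 63346 on 5% protein and 61095 to 69124 on 20% protein. Stellate cell markers fell in 4 of 8 genes, erythroid markers in 2 of 6, endothelial markers in 0 of 4, and cholangiocyte markers rose in 2 of 5. The shares over all genes were 12.4% lower and 13.4% higher. Endothelial sums were 2272 to 2667 on 5% protein and 2646 to 3144 on 20% protein, though no endothelial marker was called. At 1 week 3 erythroid markers and 1 stellate cell marker fell, against 2.44% of all genes called lower. These arrays carry no detection call, so no marker can be called absent. In whole liver, fewer cells of a type and less RNA per cell cannot be told apart, and the part of cell makeup in the members' differences was not tested.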

How the data were processed

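The files deposited by the authors hold unlogged intensity per probe set after RMA (background correction, quantile normalization and summary over probes), per the labels and the submitters' processing notes, which give no version. Of 29214 probe sets, 18644 paired with 1 gene symbol. A linear model of the 4 group means was fitted to log2 intensity of 17245 genes on 24 arrays, in R 4.3.3 by limma 3.58.1 with eBayes in its default form (20 residual and 3.95 prior degrees of freedom). Adjusted p are Benjamini-Hochberg over all genes, two-sided. Errors are standard errors unless marked SD, with 6 rats per group. Array medians lay between 42.4 and 45.5, and for arrays their number limits the precision. Nothing states that the rats of a group were housed apart, so p measures the spread between these rats.

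The members, the gene lists and the tests were chosen with earlier results of these data known. Named members were those with the smallest p in each comparison (6 higher and 4 lower at 4 weeks, 3 and 3 at 1 week, 4 for diet by time, 3 in each direction for each time comparison), and Mrpl12, Mrpl45, Mrps12, Mrpl27 and the Mrps18 genes for their roles (Mrps36, listed with them, was not among the members), together with the 2 members of each other list with the smallest p in each direction at 4 weeks. Others named (among them Mrps2, Mrps10, Tufm, Nrf1, Yy1 and the neighbours) were picked after their values were seen. The fit was tested on simulated data with independent noise for each gene and no runs of animal numbers. Such data cannot speak to run or to variation shared between genes. Start regions are those of RefSeq, assembly GRCr8, and 13 members had none here. The alternatives tried are in the closing section.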

Additional observations from a re-analysis of the deposited data

Results flagged for a closer look

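In 108 groups of 6 rats, formed by 25 named members and the 2 subunit averages over the 4 diet-by-week groups, 5 groups held 1 rat whose gap to its nearest neighbour was above Dixon's critical value at 95% for the group's range. Chance alone gives about 1 in 20 such groups. Mrpl48 was low in rat 54 on 5% protein for 1 week, at a log2 intensity of 6.44, with the next rat at 7.25. Mrps17-ps1 was high in rat 59 on 5% protein for 4 weeks, at 5.61, with the next rat at 5.33. Rat 29, on 20% protein for 4 weeks, was high for Mrps21 (11.31, next rat 11.10), Mrps12 (9.71, next rat 9.21) and Mrpl35 (9.16, next rat 8.84).

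The diet difference at 4 weeks minus that at 1 week passed the interaction test (limma adjusted p below 0.05) for 11 members. It was 1.23 for Mrps18b, 0.95 for Mrps2, 0.83 for Mrpl38, 0.62 for Mrpl48 and also 0.62 for Mrps18a. It was 0.55 for Mrps34, 0.54 for each of Mrpl17 and Mrpl35, 0.53 for Mrpl37, 0.46 for Mrpl58 and 0.41 for Mrpl55. The adjusted p ran between 0.00786 for Mrps18b and 0.0493 for Mrps2. Among all genes, 3.54% were called in this direction. With run of animal numbers as a covariate, 2 members were called, against 1.8% of all genes.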

How the results depend on the processing

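The count of members called higher on 5% protein at 4 weeks was between 21 and 27 when 1 rat was left out, and between 17 and 30 under the 10 other settings fitted to both runs. With run as a covariate it was 17, and within runs 1 and 3 it was 12 and 14, where fewer rats entered. Between 9 and 28 of the 28 genes were shared with those called under the 24 settings. The count called lower at 4 weeks was 1 with the lowest 33.3% of genes left out, with only the groups compared, within run 1, and without rat 59 or rat 63 (0 to 1 over rats left out). The Mrps median at 4 weeks was 0.26 within run 1. The diet comparison at 1 week gave 1 member lower with the lowest 33.3% left out, 1 higher and 1 lower with run as a covariate, 1 higher and 5 lower within run 2, and 3 higher and 2 lower within run 4. Leaving out rats gave 0 to 1 in each direction there, with 1 higher without rat 53 and 1 lower without rat 78. Within run 4 the 1 week medians were 0.045 for Mrpl and -0.042 for Mrps.

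The diet-by-time count of 11 was 7 with well column as a covariate and 2 with run as a covariate, and 6 to 16 with 1 rat left out. It was 6 without rat 31, 32, 49, 52, 59, 67 or 73, and 7 without rat 50 or 72. On 5% protein, the count higher over time was 2 with the lowest 33.3% left out, and 3 with only the groups compared and with well row as a random block (correlation 0.146). It was 1 to 3 with 1 rat left out, namely 3 without rat 22 or 76 and 2 without rat 26 or 75. The count lower was 1 to 2, namely 1 without rat 31, 32, 49, 54 or 59. On 20% protein, the 7 members lower were 4 after quantile normalization between arrays, 3 with only the groups compared and 1 with well row as a block. They were 1 to 12 with 1 rat left out, namely 12 without rat 29, 11 without rat 78, 3 without rat 72, 2 without rat 51, 52, 77 or 79, and 1 without rat 63, 67 or 73. Some of these settings held fewer rats or genes and others held all of them, and the cause of the changed counts was not tested.

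For single named members, 912 values under alternatives gave 849 with the call as reported, 43 that lost it, 20 that gained one and 0 with a called value of the opposite sign. Averaging the probe sets of a gene, adding 16 to intensities, robust eBayes with trend, and equal array medians moved no count by more than 1.5 times. No paired analysis was possible because each rat number occurs in 1 group only. Dim genes cannot be set against background, since RMA values carry no detection call.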
